A study of Drosophila melanogaster with 6 samples.

Results

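Homeobox genes encode transcription factors that bind DNA through a homeodomain, a helix-turn-helix fold. A set of 49 of them, picked by FlyBase symbol and matched to the gene identifiers of the deposited tables, was followed among the 17453 genes listed, in RNA recovered with the protein Zn72D from adult fly heads and in RNA of the head lysate. The set spans 8 families: 8 Hox genes, 5 TALE, 5 LIM, 5 POU, 3 of the so family, 9 paired-like, 11 NK and other Antennapedia-class, and 3 CUT and zinc finger homeobox genes. None of them lies on chromosome 4, and 8 lie on the X chromosome. Homeobox genes named or counted below are those of this set unless stated otherwise.

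RNA that came down with an antibody against GFP (RIP, 3 libraries) was set against RNA of unprecipitated lysate (input, 3 libraries). All 6 libraries came from heads of adult flies of one genotype, y1 w*; P{PTT-GA}Zn72D[CA07703], in which a protein trap inserted in the Zn72D gene adds GFP to its protein; sexes were pooled and flies were kept at 25 C with 12 h of light and 12 h of dark. Beads were washed 8 times, and the input is given as 4% of the lysate in the extraction protocol and as 5% in the design text. No untagged or mock precipitation was analysed here, so each enrichment is relative to input. The labels number the replicates 1 to 3 in each group without saying whether a number marks a separate collection of flies, and the p-values below therefore speak only of the spread among these libraries, part or all of which may be technical.

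Hox genes give body segments their identity, and exd and hth encode TALE cofactors that bind DNA together with Hox proteins. LIM, POU, paired-like and so family genes are best known from the nervous system and the eye, where combinations of them fix neuron and photoreceptor types, and many stay on in adult neurons. Zn72D binds RNA through zinc fingers; in flies it is known for its part in X chromosome dosage compensation and for its effect on RNA editing by the enzyme Adar.

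The RIP libraries held 28070655 to 38182015 counts and the input libraries 34401553 to 38331703. Ribosomal RNA took 4.73 to 9.39% of the RIP counts and 78.1 to 83.0% of the input counts, which left 25434735 to 36377598 counts outside rRNA in RIP and 5864723 to 8182107 in input, so the input values are the less precise ones. Levels are given as CPM, the count relative to a library size scaled by TMM, a method that takes most genes as equal between groups; 1 count was worth 0.0132 to 0.0210 CPM in RIP and 0.0460 to 0.0608 CPM in input. Replicate 3 stood apart from replicates 1 and 2 in both groups: summed CPM of 6 testis markers was 0.193 times the mean of the other RIP libraries in RIP replicate 3 and 0.186 times that of the other inputs in input replicate 3, and of 4 fat body markers 1.72 and 1.92 times. Markers of neurons (1.33 and 1.30 times), glia (1.27 and 1.26 times) and photoreceptors (1.02 and 1.05 times) moved less. Results are therefore also given without both replicate 3 libraries where that changes them.

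All 49 genes had at least 1 count in each of the 3 inputs, and 47 had at least 3. By the stricter minimum of 10 counts in each input library, 42 of the 49 (85.7%) were detected in heads, against 9673 of 17336 genes outside rRNA (55.8%). These shares are not matched for transcript length, and the wider list holds noncoding genes while the 49 are all protein-coding. Per transcript length, the median of the set in input was below that of all genes with counts (3.04 against 5.87 TPM). The 7 below that minimum were Ubx, abd-A, exex, Six4, al, unpg and ro, and in RIP, where more counts fall outside rRNA, 47 of the 49 reached 10 counts in every library. The rough eye gene ro, known from photoreceptor specification in the larval eye disc, had 3, 1 and 1 counts in RIP and 1, 1 and 1 in input, at or under the floor of 3 counts in every library. The brain lineage gene unpg had 16, 22 and 1 counts in RIP and 1, 1 and 3 in input. These 2 did not pass edgeR's filter on low counts, which left 47 homeobox genes among 11670 genes tested.

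Divided by transcript length, levels in input spanned the range from hth to ro. The TALE gene hth led with 61.3 ± 6.50 TPM outside rRNA (SD, n = 3), above each library of any other gene of the set, and was followed within the set by the NK2-type gene scro with 35.4 ± 3.84, the sensory organ gene ct with 33.7 ± 4.14 and the hth partner exd with 31.4 ± 1.92 TPM. The libraries of scro, ct and exd overlapped. The LIM gene ap, at 26.0 ± 1.89 TPM, and the POU gene pdm3, at 23.0 ± 1.71 TPM, came next. In all, 13 genes reached 10 TPM, 29 lay from 1 to 10 TPM and 7 lay under 1 TPM, and the median of 3.04 TPM was below the 5.87 TPM of all genes with counts in input. Only 6 of the 48 neighbours in this order had library ranges that did not overlap. The 49 genes together took 0.264 to 0.307% of the RIP counts outside rRNA and 0.189 to 0.199% of the input counts, and hth and ct alone supplied 47.2% of the counts of the 49.

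**Figure D1:**
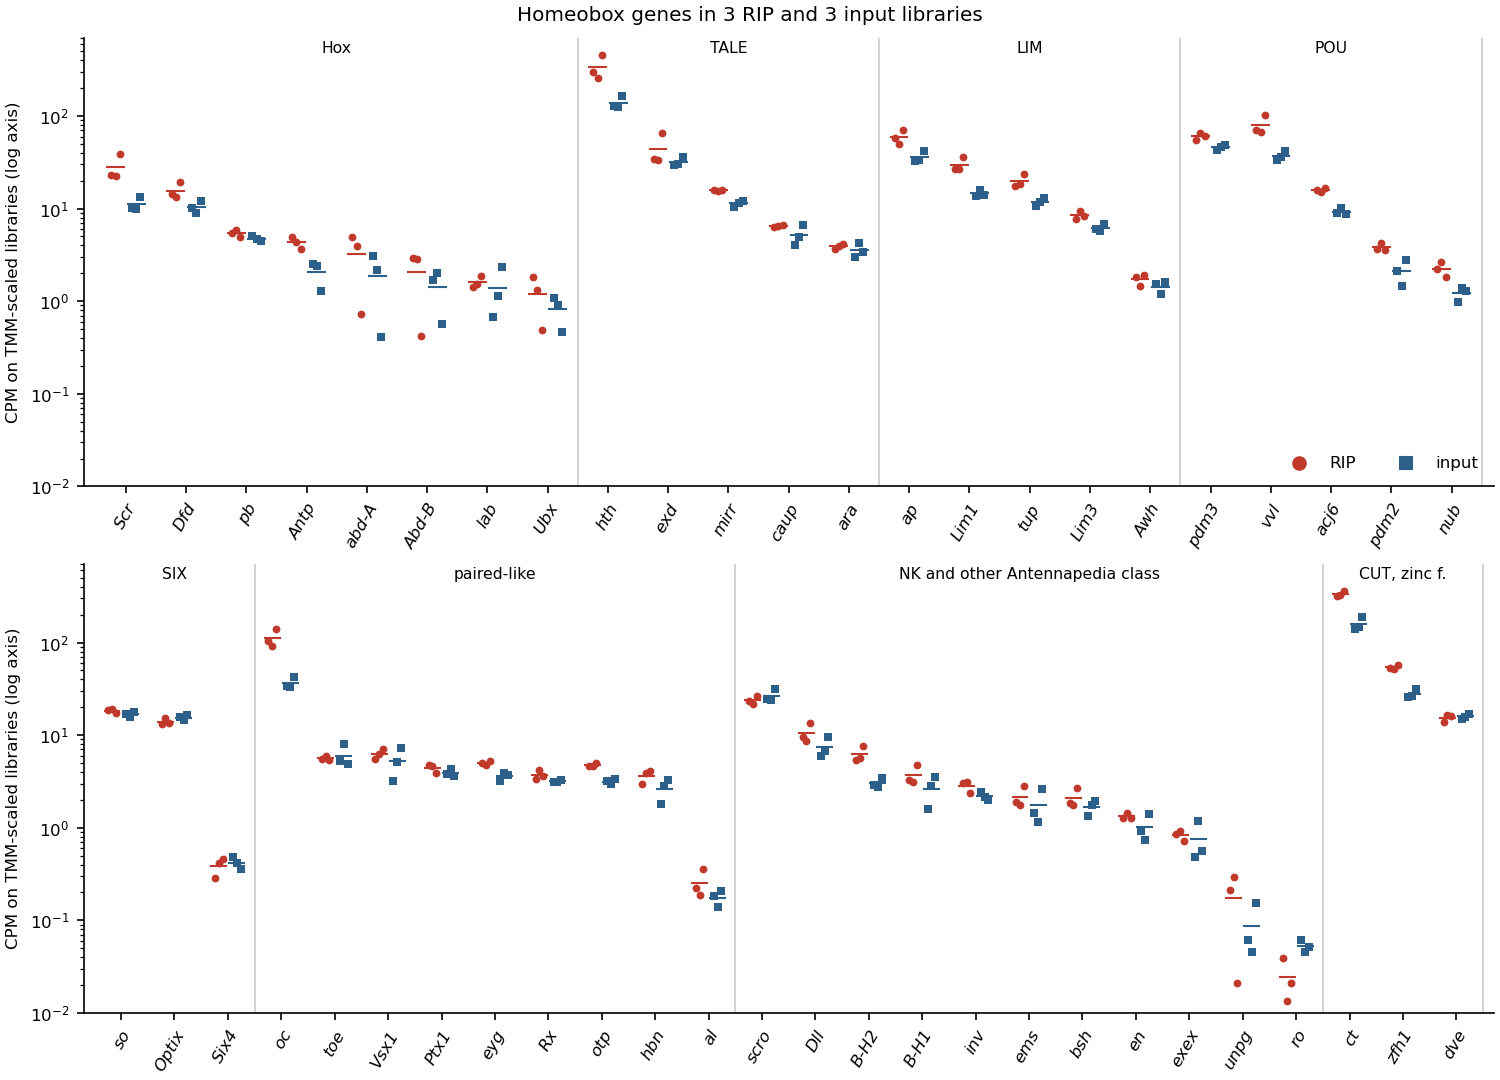
Level of each of the 49 homeobox genes in CPM on a log axis, by family; circles are the 3 RIP libraries and squares the 3 input libraries, drawn from replicate 1 to 3 left to right, with the mean as a line. hth and ct stand highest, and the 3 bithorax genes Ubx, abd-A and Abd-B are the ones with replicate 3 far below the other libraries in both groups.

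Of the 47 tested genes, 20 were enriched in RIP and none was depleted at an adjusted p under 0.05 in edgeR's quasi-likelihood test; 0 were lower in RIP at an unadjusted p under 0.05, and DESeq2 and limma-voom also called 0 depleted. That is 42.6% of them, where 20.2% of all 11670 genes were enriched and 17.0% depleted. All but 5 of the log2 fold changes were positive, with a median of 0.47 against 0.06 over all genes tested, and 8 genes were enriched at least 2-fold (17.0% of those tested, against 5.90% of all genes). In 21 genes (44.7%) every RIP library lay above every input library, which held for 26.5% of all genes, and no tested homeobox gene had every RIP library below input, which held for 24.3% of all genes. The zero point of the fold changes is set by TMM. Scaled by library size alone, the median of all genes moved to 1.90 on the log2 scale and every one of the 47 passed as enriched, so a value near 0 here means recovery like that of the typical gene. By counting depth, 14 of 23 homeobox genes with a mean of 100 or more input counts were enriched and 6 of 24 with fewer. The share of all genes at such depths was not taken. Fold change and mean input count had a Spearman rho of 0.23 over the 47 homeobox genes and 0.19 over all 11670 genes. With the trend of fold change with transcript length removed, rho was 0.0064 and -0.21.

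**Figure D2:**
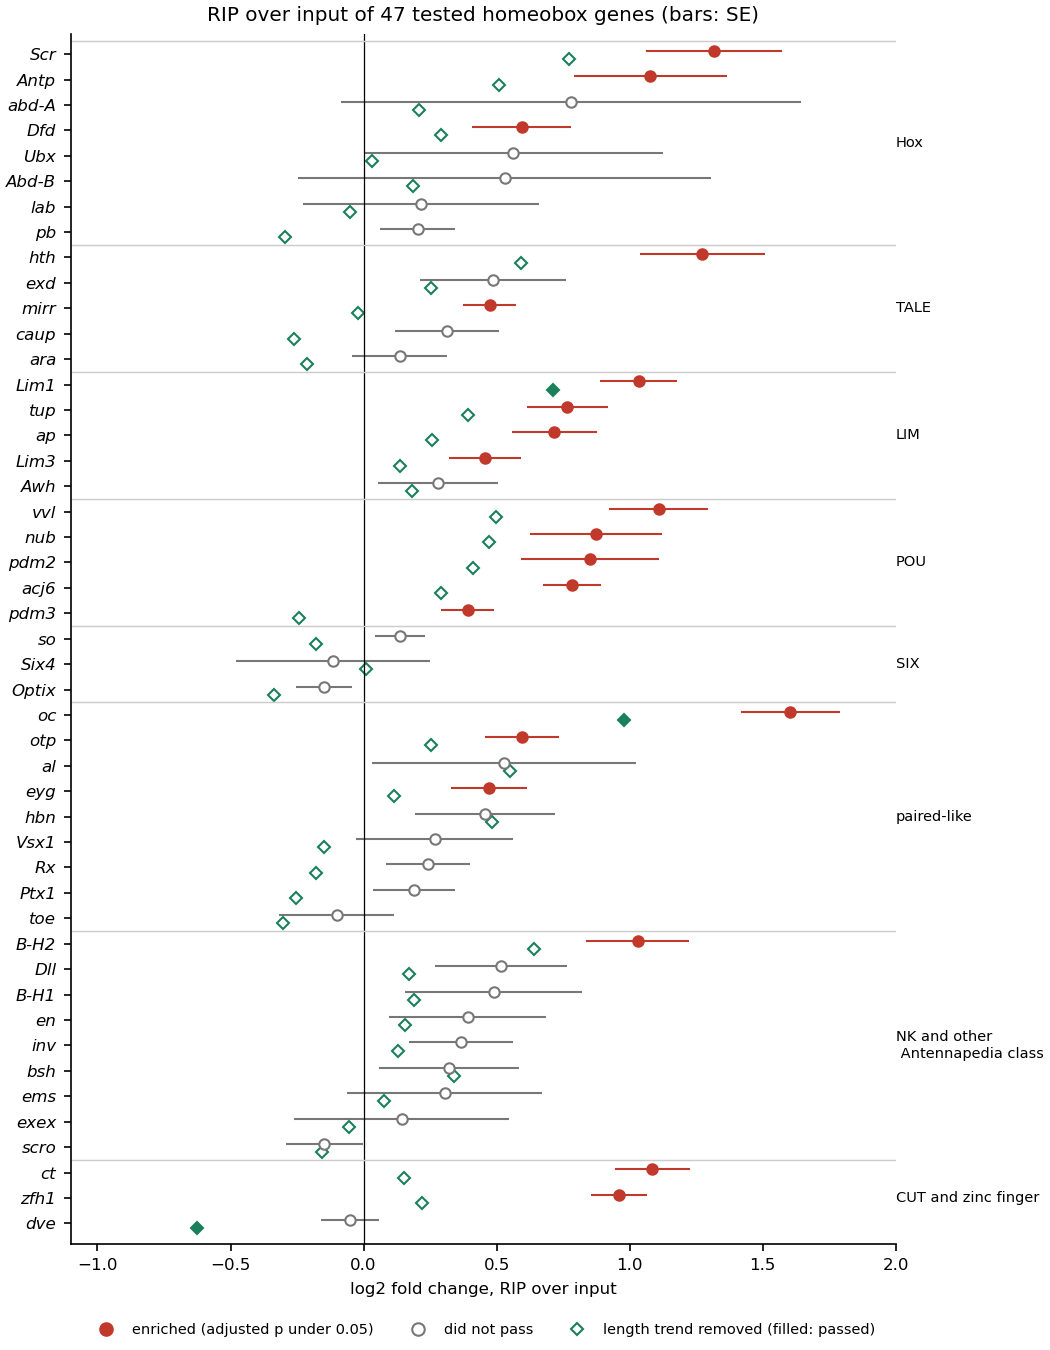
log2 fold change of RIP over input for the 47 tested homeobox genes, by family, with bars of 1 SE; filled circles passed at an adjusted p under 0.05, and diamonds give the fold change after the trend with transcript length was removed, filled where it passed. Most circles lie right of 0 with oc highest at 1.60, and the diamonds of all but Lim1, oc and dve are open.

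Of the 8 Hox genes 3 were enriched, Scr, Antp and Dfd, which all belong to the Antennapedia complex on chromosome 3R. Over all tested genes 20.2% were enriched, and 44.6% of those of 3000 to 4000 bases, the class of the median Hox length (3850 bases). The 3 enriched genes lay outside that class. Dfd has 2739 bases, in a class in which 18.3% of all genes were enriched. Scr (4063 bases) and Antp (4261 bases) lay in the class in which 69.5% were. With the trend with transcript length removed 0 of the 8 were enriched, where 7.81% of all genes were. With the replicate number as a block in that fit as well, the same 3 were enriched, where 24.2% of all genes were. Scr, which specifies the labial and first thoracic segments, had 22.9, 22.2 and 38.5 CPM in RIP, against 10.2, 9.89 and 13.4 CPM in input. Every RIP library lay above every input library, replicate 3 being the highest in both groups, and Scr rose by 1.32 ± 0.26 on the log2 scale (± SE, as throughout; edgeR adjusted p = 0.00893). Antp, the thoracic leg gene, had 4.97, 4.41 and 3.64 CPM in RIP, against 2.49, 2.39 and 1.29 CPM in input, the lowest library being replicate 3 in each group. Its groups were apart and it rose by 1.08 ± 0.29 (edgeR adjusted p = 0.0282), but without RIP replicate 1, 2 or 3 or input replicate 2 it no longer passed (adjusted p up to 0.128). In the reference annotation 50.1% of the exon bases of Antp are shared with the same-strand gene CG46458, which was not used here, so reads of that gene cannot be told from those of Antp. Dfd, needed for the maxillary and mandibular segments, had 14.5, 13.3 and 19.2 CPM in RIP, against 10.0, 8.97 and 12.1 CPM in input. It rose by 0.59 ± 0.19 just inside the threshold (edgeR adjusted p = 0.0485), and lost the call without any 1 library other than input replicate 3 (adjusted p up to 0.159).

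The other genes of that complex did not pass. The mouthpart gene pb had 5.49, 5.88 and 4.88 CPM in RIP, against 5.04, 4.65 and 4.43 CPM in input, with overlapping groups (0.20 ± 0.14, edgeR adjusted p = 0.322). The head gene lab had 1.43, 1.54 and 1.85 CPM in RIP, against 0.668, 1.15 and 2.32 CPM in input, and here the input libraries spread more widely than the RIP libraries (0.22 ± 0.44, edgeR adjusted p = 0.752). With input replicate 1 left out, the fold change of lab turned to -0.10.

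Ubx, abd-A and Abd-B form the bithorax complex, further along chromosome 3R, and give identity to the posterior thorax and the abdomen, parts that are not in the head. abd-A had 4.96, 3.97 and 0.736 CPM in RIP, against 3.10, 2.16 and 0.412 CPM in input. Abd-B had 2.93, 2.82 and 0.421 CPM in RIP, against 1.70, 2.02 and 0.566 CPM in input, and Ubx had 1.83, 1.32 and 0.484 CPM in RIP, against 1.09, 0.920 and 0.463 CPM in input. In each of the 3 genes replicate 3 was the lowest library of both groups and the groups overlapped, and none passed: log2 fold changes were 0.78 ± 0.86 for abd-A, 0.53 ± 0.78 for Abd-B and 0.56 ± 0.56 for Ubx (edgeR adjusted p = 0.545, 0.65 and 0.501). Measured as the log2 deviation from the mean of replicates 1 and 2, replicate 3 was at -2.59 in RIP and -2.65 in input for abd-A, at -2.77 and -1.71 for Abd-B, and at -1.68 and -1.11 for Ubx. These were the only 3 homeobox genes of the set below -1 in both groups, while 15.5% of all tested genes were, and the median homeobox gene was at 0.12 in RIP and 0.20 in input. Across the 47 genes the deviations in RIP and input correlated at a Pearson r of 0.83, given as a description since all genes share the same libraries.

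**Figure D3:**
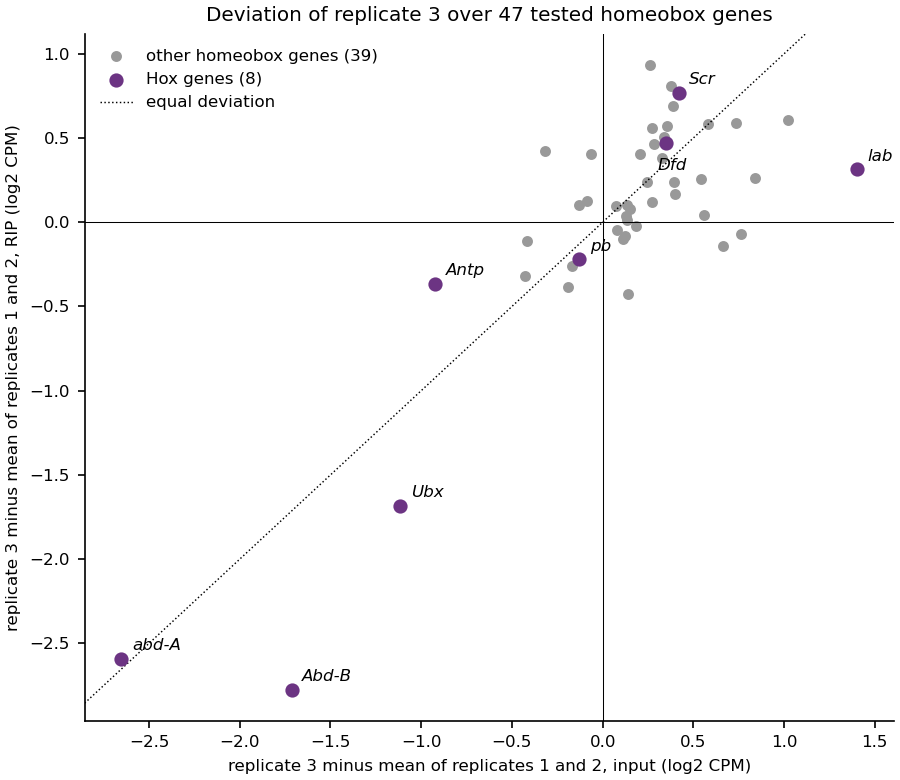
Deviation of replicate 3 from the mean of replicates 1 and 2 on a log2 scale, RIP on the vertical and input on the horizontal axis, for 47 tested homeobox genes. Ubx, abd-A and Abd-B lie below -1 on both axes, and the dotted line marks equal deviation.

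Among the anterior Hox genes, Scr and Dfd were higher in replicate 3 in both groups (Scr by 0.77 in RIP and 0.42 in input, Dfd by 0.47 and 0.35), and so was lab (by 0.31 and 1.40). pb was slightly lower, at -0.22 in RIP and -0.13 in input, and Antp was lower, at -0.36 in RIP and -0.92 in input. The look at replicate 3 by Hox gene was chosen after values were seen and carries no test. All 6 testis markers were also lowest in replicate 3 of both groups; their summed level was 78.2, 70.8 and 14.4 CPM in RIP and 98.4, 88.4 and 17.4 CPM in input. Of the 3 ovary markers matched, Cp36 was at 0 in every library, the eggshell gene Vm26Aa had 1 count in all, and osk had 333, 381 and 13 counts in RIP and 13, 40 and 4 in input. Whether the bithorax RNA came from tissue outside the head was not tested. In bulk samples of this kind, fewer cells of a type and less RNA per cell cannot be told apart. Without both replicate 3 libraries abd-A rose by 0.62 (edgeR adjusted p = 0.0259), while Abd-B (0.45, adjusted p = 0.0841) and Ubx (0.49, adjusted p = 0.169) still did not pass.

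In the TALE family, hth and mirr were enriched, 2 of 5, where 20.2% of all tested genes were. mirr has 3689 bases, in a class in which 44.6% of all genes were enriched, and hth 5481 bases, where 69.5% were. With the length trend removed 0 of the 5 were enriched (7.81% of all genes) and their median was -0.02. With the replicate block as well, 1 of the 5 was enriched (24.2% of all genes). hth (FBgn0001235) lies on chromosome 3R at 3R:10507561-10639568 (dm6, minus strand), and its protein carries exd into the nucleus. It had 300.0, 260.4 and 451 CPM in RIP, against 127, 126 and 165 CPM in input, the largest difference in mean CPM among the 49 genes. No RIP library overlapped an input library, and hth rose by 1.27 ± 0.23, 2.42-fold (edgeR adjusted p = 0.0071). Its partner exd had 34.7, 33.6 and 65.2 CPM in RIP, against 29.5, 30.0 and 35.7 CPM in input. RIP replicate 3 alone stood high for exd and the groups overlapped (0.49 ± 0.28, edgeR adjusted p = 0.23); without RIP replicate 3 the fold change was -0.01. With the replicate number as a block in the fit, exd passed (edgeR adjusted p = 0.00197).

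The Iroquois genes ara, caup and mirr sit side by side on chromosome 3L and pattern the dorsal eye and the notum. mirr had 16.0, 15.5 and 15.9 CPM in RIP, against 10.5, 11.6 and 12.1 CPM in input, and rose by 0.47 ± 0.10 with no overlap (edgeR adjusted p = 0.0117), a call that was lost without RIP replicate 2 (adjusted p = 0.0534). caup had 6.26, 6.54 and 6.60 CPM in RIP, against 4.07, 4.92 and 6.59 CPM in input, and ara had 3.70, 3.94 and 4.16 CPM in RIP, against 3.04, 4.28 and 3.40 CPM in input. Both overlapped and neither passed (caup 0.31 ± 0.20, ara 0.14 ± 0.18; edgeR adjusted p = 0.271 and 0.611).

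Of the 5 LIM genes, which encode neuron identity factors, Lim1, tup, ap and Lim3 were enriched. Over all tested genes 20.2% were, and 18.3% of those of 2000 to 3000 bases, the class of the median LIM length (2816 bases). tup (3017 bases) and ap (3481 bases) lay in the next class, in which 44.6% of all genes were enriched. With the length trend removed Lim1 alone of the 5 was enriched, where 7.81% of all genes were. With the replicate block as well, 3 were enriched, Lim1, tup and ap, where 24.2% of all genes were. Lim1 (FBgn0026411), on the X chromosome at X:8756539-8805804 (dm6, minus strand), had 27.0, 26.8 and 35.7 CPM in RIP, against 13.7, 15.9 and 14.1 CPM in input. The RIP libraries all lay above the input libraries and Lim1 rose by 1.03 ± 0.14 (edgeR adjusted p = 0.00259). tup, the fly islet gene of motor neurons, had 17.6, 18.4 and 23.9 CPM in RIP, against 10.7, 11.7 and 12.9 CPM in input, and rose by 0.76 ± 0.15 (edgeR adjusted p = 0.00966). ap, the dorsal wing selector that also marks brain neurons, had 57.8, 50.1 and 70.2 CPM in RIP, against 32.9, 33.7 and 41.8 CPM in input. It rose by 0.72 ± 0.16 with the groups apart (edgeR adjusted p = 0.0143), though it did not pass without input replicate 1 or 2 (adjusted p up to 0.0669). Lim3, a motor neuron gene, had 7.72, 9.42 and 8.39 CPM in RIP, against 6.08, 5.80 and 6.74 CPM in input. Its rise of 0.46 ± 0.13 (edgeR adjusted p = 0.0393) did not pass without RIP replicate 2 or 3 or input replicate 1 or 2 (adjusted p up to 0.189), nor without both replicate 3 libraries (adjusted p = 0.0563). Awh, which acts in imaginal cells, at 1.82, 1.48 and 1.93 CPM in RIP and 1.52, 1.20 and 1.60 CPM in input, overlapped (0.28 ± 0.23, edgeR adjusted p = 0.402).

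All 5 POU genes were enriched, where 20.2% of all tested genes were. Their median transcript length was 3680 bases, in the class of 3000 to 4000 bases in which 44.6% of all genes were enriched. vvl (4630 bases) and pdm3 (4907 bases) lay in the class above it, in which 69.5% were. With the length trend removed 0 of the 5 were enriched, where 7.81% of all genes were. With the replicate block as well, 2 were enriched and 1 was depleted, where 24.2% and 25.5% of all genes were. vvl, the single-exon drifter gene of trachea and brain, had 71.3, 67.3 and 102 CPM in RIP, against 33.6, 36.0 and 42.0 CPM in input, and rose by 1.11 ± 0.19 (edgeR adjusted p = 0.00498). acj6, which selects olfactory receptors and neuron targeting, had 15.9, 15.2 and 16.7 CPM in RIP, against 8.93, 10.2 and 8.70 CPM in input, and rose by 0.78 ± 0.11 (edgeR adjusted p = 0.0026). In both the lowest RIP library was well above the highest input library. pdm3, another olfactory neuron gene, had 54.7, 65.6 and 61.4 CPM in RIP, against 43.1, 46.4 and 48.96 CPM in input. It had the smallest rise of the 20 enriched genes, 0.39 ± 0.10 (edgeR adjusted p = 0.0239), and did not pass without RIP replicate 2 or 3 or input replicate 1 or 2 (adjusted p up to 0.171), nor without both replicate 3 libraries (adjusted p = 0.0557).

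nub and pdm2 are neighbouring paralogs that act as temporal factors in neuroblasts. nub had 2.21, 2.66 and 1.81 CPM in RIP, against 0.972, 1.40 and 1.29 CPM in input, and pdm2 had 3.63, 4.29 and 3.57 CPM in RIP, against 2.13, 1.45 and 2.78 CPM in input. The groups did not overlap in either gene, and nub rose by 0.87 ± 0.25 and pdm2 by 0.85 ± 0.26 (edgeR adjusted p = 0.0348 and 0.0436). These calls rest on few input counts, 16, 30.42 and 25 for nub and 35, 31.58 and 54 for pdm2; each was lost without 5 of the 6 libraries taken one at a time (adjusted p up to 0.136 for nub, where RIP replicate 3 was the exception, and 0.126 for pdm2, where input replicate 3 was). The fractions in input replicate 2 show reads that the authors' counting divided between the paralogs, and they were the only 2 of 294 homeobox counts that were not whole.

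The highest fold change of the set was that of oc, the orthodenticle gene, which patterns the head and ocelli and controls rhodopsin genes in photoreceptors. oc (FBgn0004102) lies on the X chromosome at X:8630159-8650681 (dm6, minus strand) and is a paired-like gene. It had 103, 92.7 and 139 CPM in RIP, against 34.1, 33.2 and 42.6 CPM in input. Every RIP library lay far above every input library, and oc rose by 1.60 ± 0.19, 3.04-fold (edgeR adjusted p = 0.00139), a call that was kept with each library left out. otp, a gene of brain and hindgut, had 4.64, 4.66 and 4.98 CPM in RIP, against 3.16, 2.94 and 3.35 CPM in input, and rose by 0.60 ± 0.14 (edgeR adjusted p = 0.0169), but passed with 1 library left out only where that library was input replicate 3 (adjusted p up to 0.0801). A share of 9.53% of its exon bases overlaps the antisense gene asRNA:CR43160, whose reads cannot be told apart without a stated strand setting. The same limit touches 4.55% of the exon bases of zfh1, 1.75% of hth and 1.19% of Ubx.

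The Pax-type pair toe and eyg promotes eye growth. eyg had 5.05, 4.71 and 5.21 CPM in RIP, against 3.22, 3.86 and 3.71 CPM in input, and rose by 0.47 ± 0.14 with the groups apart (edgeR adjusted p = 0.0434); it lost the call without any 1 of the 6 libraries (adjusted p up to 0.189) and without both replicate 3 libraries (adjusted p = 0.162). toe had 5.56, 5.96 and 5.34 CPM in RIP, against 5.23, 8.01 and 4.84 CPM in input, where replicate 2 was the highest input (-0.10 ± 0.22, edgeR adjusted p = 0.762). Without input replicate 2 the value for toe was 0.18.

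The remaining paired-like genes, of which Rx, Vsx1 and hbn are known from the brain and visual system, did not pass. Rx had 3.35, 4.25 and 3.66 CPM in RIP, against 3.10, 3.13 and 3.29 CPM in input, the one gene with groups apart and no call (0.24 ± 0.16, edgeR adjusted p = 0.299). Vsx1 had 5.51, 6.26 and 7.04 CPM in RIP, against 3.22, 5.11 and 7.26 CPM in input, with a wide spread of the inputs (0.27 ± 0.29, edgeR adjusted p = 0.542). hbn had 2.99, 3.86 and 4.06 CPM in RIP, against 1.82, 2.81 and 3.29 CPM in input (0.46 ± 0.26, edgeR adjusted p = 0.236), and passed with the replicate block (adjusted p = 0.0211). Both Vsx1 and hbn had overlapping groups. Ptx1 had 4.78, 4.65 and 3.93 CPM in RIP, against 3.83, 4.28 and 3.60 CPM in input (0.19 ± 0.15, edgeR adjusted p = 0.406). al, the arista gene, had 17, 14 and 17 counts in RIP and 3, 3 and 4 in input (0.53 ± 0.50, edgeR adjusted p = 0.472).

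No so family gene passed (edgeR; 0 of the 3 also at an unadjusted p under 0.05). so, which works with eya in eye determination, had 18.6, 19.0 and 17.5 CPM in RIP, against 17.0, 15.6 and 17.6 CPM in input (0.14 ± 0.09, edgeR adjusted p = 0.319). Optix, another eye determination gene, had 13.3, 15.2 and 13.4 CPM in RIP, against 15.6, 14.4 and 16.4 CPM in input (-0.15 ± 0.11, edgeR adjusted p = 0.34). The groups of both overlapped within a narrow range, and the standard errors of 0.09 and 0.11 are among the smallest of the set. Six4, a mesoderm gene, had 22, 31 and 22 counts in RIP and 8, 9 and 7 in input (-0.12 ± 0.36, edgeR adjusted p = 0.845).

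Of the 9 tested NK and other Antennapedia-class genes, B-H2 alone was enriched, where 20.2% of all tested genes were. B-H2, one of the Bar genes of photoreceptors and sensory organs, had 5.39, 5.64 and 7.61 CPM in RIP, against 2.92, 2.76 and 3.45 CPM in input, with the groups apart, and rose by 1.03 ± 0.19 (edgeR adjusted p = 0.00794). Its paralog B-H1 had 3.26, 3.09 and 4.77 CPM in RIP, against 1.58, 2.81 and 3.50 CPM in input, and overlapped (0.49 ± 0.33, edgeR adjusted p = 0.316). Dll, the gene of distal appendages such as antennae, had 9.54, 8.62 and 13.6 CPM in RIP, against 6.02, 6.67 and 9.47 CPM in input (0.52 ± 0.25, edgeR adjusted p = 0.162). Dll and B-H1 passed with the replicate block (edgeR adjusted p = 0.000533 and 0.0242). The input library of replicate 1 was the lowest for both genes.

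scro, an NK2-type gene of the optic lobe and central brain, was well counted (1784, 1644 and 1271 counts in RIP and 402, 516 and 615 in input) and had 23.5, 21.9 and 26.7 CPM in RIP, against 24.4, 23.7 and 31.7 CPM in input. Its groups overlapped, with replicate 3 highest in each (-0.15 ± 0.15, edgeR adjusted p = 0.492), and without both replicate 3 libraries it fell by 0.25 on the log2 scale (edgeR adjusted p = 0.0261). The paralogs en and inv, which mark posterior compartments, also overlapped: en had 1.26, 1.44 and 1.28 CPM in RIP and 0.911, 0.736 and 1.39 in input, and inv had 3.01, 3.13 and 2.35 CPM in RIP and 2.43, 2.16 and 2.01 in input. Their fold changes were 0.39 ± 0.30 and 0.37 ± 0.19 (edgeR adjusted p = 0.368 and 0.2). ems, a head gap gene, had 1.91, 1.77 and 2.80 CPM in RIP and 1.46, 1.15 and 2.63 in input, with replicate 3 highest in both groups (0.30 ± 0.37, edgeR adjusted p = 0.581). bsh, which marks lamina and medulla neurons, had 1.87, 1.76 and 2.69 CPM in RIP and 1.34, 1.75 and 1.96 in input (0.32 ± 0.26, edgeR adjusted p = 0.409). The motor neuron gene exex had 0.855, 0.932 and 0.715 CPM in RIP and 0.486, 1.20 and 0.566 in input, and input replicate 2 was the highest of all 6 libraries (0.14 ± 0.40, edgeR adjusted p = 0.825).

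ct and zfh1, which carry a homeodomain beside other DNA-binding domains, were enriched, 2 of the 3 CUT and zinc finger genes. Over all tested genes 20.2% were, and 69.5% of those of 4000 bases and over, the class of all 3. With the length trend removed 0 of the 3 were enriched and 1 was depleted, where 7.81% and 11.3% of all genes were. With the replicate block as well, 1 was enriched and 1 depleted (24.2% and 25.5% of all genes). ct (FBgn0004198), which sets external sensory organ identity and dendrite shape, lies on the X chromosome at X:7608428-7678859 (dm6, plus strand) and has the longest transcripts of the set, 10956 bases on average. It had 319, 326 and 363 CPM in RIP, against 139.8, 146 and 189 CPM in input, with every RIP library well above every input library, and rose by 1.09 ± 0.14 (edgeR adjusted p = 0.00199). zfh1, a transcriptional repressor that acts in mesoderm and motor neurons, had 53.1, 52.3 and 57.3 CPM in RIP, against 25.6, 26.5 and 31.5 CPM in input. It rose by 0.96 ± 0.11 and had the smallest adjusted p of the set (edgeR adjusted p = 0.00121). dve, which represses rhodopsin genes in some photoreceptors, had 13.9, 16.4 and 15.9 CPM in RIP, against 15.1, 15.7 and 17.0 CPM in input, and its groups overlapped closely (-0.05 ± 0.11, edgeR adjusted p = 0.769).

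Recovery went with transcript length, in the homeobox genes as in all genes. The tested homeobox genes had a median mean transcript length of 2954 bases, against 1822 bases for all tested genes, and the enriched ones 3581 bases, against 2609 bases for those not called. Below 2000 bases 0 of 5 homeobox genes were enriched by edgeR, also at an unadjusted p under 0.05 (3.30% of all genes of that length were enriched). From 2000 to 3000 bases 5 of 19 were (26.3%, against 18.3% of all genes), from 3000 to 4000 bases 7 of 12 (58.3%, against 44.6%), and from 4000 bases up 8 of 11 (72.7%, against 69.5%). Set against all genes of the same length, the homeobox share was closer to the background than the overall 42.6% against 20.2%. The length classes were chosen after values were seen. Across genes, which are not independent replicates, fold change and length had a Spearman rho of 0.54 over 47 homeobox genes and 0.64 over 11670 genes. The part of fragment size, RNA integrity and rRNA content in this trend was not tested.

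With the length trend removed by an offset per gene, 2 homeobox genes were enriched and 1 was depleted, where 7.81% and 11.3% of all genes were. oc rose by 0.98 and Lim1 by 0.71 (edgeR adjusted p = 0.0184 and 0.0226), and dve fell by 0.62 (edgeR adjusted p = 0.0152). hth (0.59, adjusted p = 0.129) and ct (0.15, adjusted p = 0.51) did not pass in that edgeR fit, which had no replicate block. Scr was at 0.77 and B-H2 at 0.64 (edgeR adjusted p = 0.084 and 0.0668). The median homeobox gene was at 0.17 after the removal and at 0.47 before it.

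**Figure D4:**
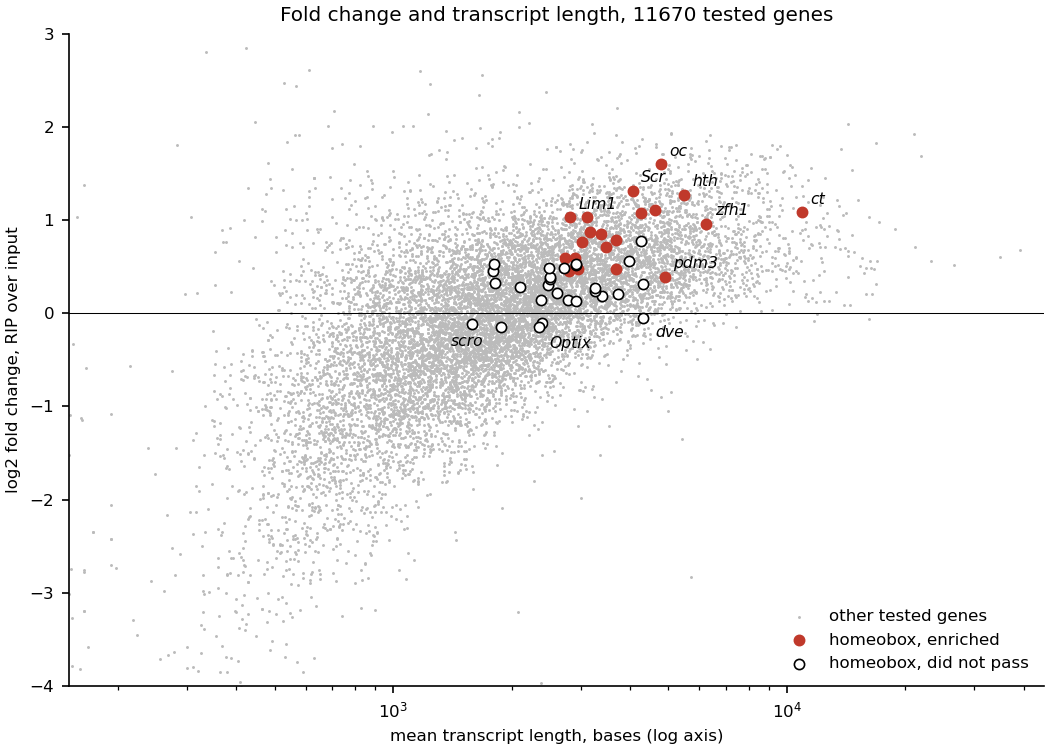
log2 fold change of RIP over input against mean transcript length on a log axis, for 47 homeobox genes (large circles, filled where enriched) and the other tested genes (grey); 83 tested genes, none of them a homeobox gene of the set, lie outside the axes. Fold change climbs with length in both sets, and oc, Scr, hth and Lim1 lie above the middle of the cloud at their length while dve and pdm3 lie below it.

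With the replicate number as a block, which removes what same-numbered libraries share, 25 homeobox genes were enriched and none was depleted (32.7% and 27.7% of all genes). The 25 held all 20 of the first fit plus exd, abd-A, hbn, B-H1 and Dll; abd-A then had an edgeR adjusted p of 0.00121. With the block, after the length trend was also taken out, 13 were enriched and 3, dve, Optix and pdm3, were depleted (24.2% and 25.5% of all genes). Their log2 fold changes there were -0.62 for dve, -0.33 for Optix and -0.25 for pdm3 (edgeR adjusted p = 1.44e-05, 0.00888 and 0.0172), so pdm3 turned its direction between these fits. The 13 enriched were oc, Scr, Lim1, hth, vvl, B-H2, tup, ap, hbn, Antp, Dfd, acj6 and zfh1. Among them hth was at 0.56 and Scr at 0.75 (edgeR adjusted p = 2.35e-05 and 3.19e-06). ct did not pass there either (0.16, edgeR adjusted p = 0.124). With rRNA genes left out before scaling 14 were enriched and none was depleted (15.7% and 21.3% of all genes). Without both replicate 3 libraries 19 were enriched and 1, scro, was depleted (24.7% and 28.6% of all genes).

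By chromosome, 5 of the 8 X-linked homeobox genes were enriched (ct, oc, Lim1, acj6 and B-H2, but not exd, B-H1 and Vsx1), where 26.3% of all tested X-linked genes were. On chromosome arms 2L, 2R, 3L and 3R, 15 of 39 were, where 18.5% of all genes there were. The median log2 fold change was 0.91 for X-linked and 0.46 for autosomal homeobox genes, against 0.19 and 0.02 for all X-linked and autosomal genes. The X-linked homeobox genes also had the longer transcripts, with a median of 3179 bases, against 2921 bases for the autosomal ones.

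Pairs of paralogs and partners were compared within each library by the log2 ratio of their counts, which does not depend on library size. The ratio of exd to hth was -3.11, -2.95 and -2.79 in RIP, against -2.10, -2.07 and -2.21 in input. The RIP libraries all lay below the input libraries, with a mean difference of -0.82 (two-sided exact permutation test p = 0.1, the smallest that 3 against 3 libraries allow; 0.3 after adjustment over the 6 pairs). The transcripts of exd are shorter than those of hth (2491 and 5481 bases), and with the length trend removed their log2 fold changes lay closer together, at 0.25 for exd and 0.59 for hth, against 0.49 and 1.27 before. The ratio of toe to eyg was 0.14, 0.34 and 0.03 in RIP, against 0.69, 1.04 and 0.38 in input, again with RIP below (difference -0.53, exact p = 0.1, adjusted 0.3), but with the deposited TPM in place of counts that difference turned to 0.014. The other 4 ratios overlapped. B-H1 over B-H2 averaged -0.75 ± 0.10 in RIP and -0.27 ± 0.51 in input (SD, n = 3 each; exact p = 0.3), and ara over caup -0.72 ± 0.05 in RIP and -0.52 ± 0.38 in input (exact p = 0.4). nub over pdm2 averaged -0.79 ± 0.16 in RIP and -0.74 ± 0.59 in input (exact p = 1), and en over inv -1.08 ± 0.19 in RIP and -1.12 ± 0.53 in input (exact p = 0.9). No pair passed after adjustment, and with 3 libraries a group none could.

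**Figure D5:**
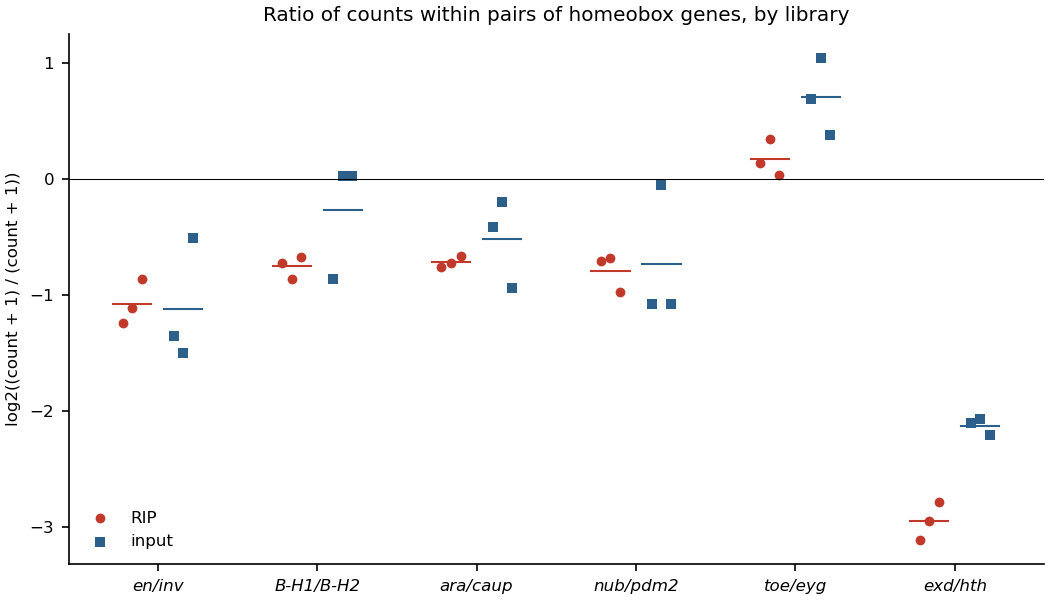
log2 ratio of the counts of the first to the second gene of 6 pairs (1 added to each count); circles are RIP and squares input libraries, with the mean as a line. The RIP libraries of exd/hth and toe/eyg lie below all inputs, and the other pairs overlap.

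Genes that work with homeodomain proteins were followed as a list of 9 partners and cofactors, of which 6 were enriched and 1 was depleted, with a median log2 fold change of 0.62 and a median transcript length of 3700 bases (20.2% and 17.0% of all tested genes were enriched and depleted, and 44.6% of those of 3000 to 4000 bases were enriched). Ssdp, which binds the LIM cofactor Chi, had 177, 159 and 214 CPM in RIP, against 71.0, 74.4 and 84.3 CPM in input, and rose by 1.26 ± 0.14 (edgeR adjusted p = 0.00117). Chi itself, the bridge between LIM homeodomain proteins, had 8.60, 11.2 and 10.5 CPM in RIP, against 15.8, 17.9 and 17.9 CPM in input, and fell by 0.77 ± 0.13 (edgeR adjusted p = 0.00577). All RIP libraries of Ssdp lay above input and all of Chi below it. tio, a zinc finger gene of the teashirt family, rose by 0.97 ± 0.11 (edgeR adjusted p = 0.00139). The genes of the list ran from 2156 bases (Chi) to 5628 bases (tio), across classes in which 18.3 to 69.5% of all genes were enriched. With the length trend removed the list had 1 enriched and 2 depleted genes, where 7.81% and 11.3% of all genes were.

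Polycomb and trithorax genes, which keep Hox genes off or on, were enriched in 11 of 14 cases with 1 depleted and a median of 0.60, where 20.2% and 17.0% of all genes were enriched and depleted. Their transcripts were long (median 3937 bases), and 44.6% of all genes in the class of that median, 3000 to 4000 bases, were enriched. The genes ran from 1542 bases (Sce) to 13424 bases (trx), across classes in which 3.30 to 69.5% of all genes were enriched. trx, ash1, Psc, ph-d, ph-p, brm and Su(z)12 lay in the class with 69.5%. trx had 611, 569 and 519 CPM in RIP, against 284, 292 and 338 CPM in input, and rose by 0.89 ± 0.12 (edgeR adjusted p = 0.00199). ash1 rose by 0.80 ± 0.12 and Sce, the Ring subunit of Polycomb complexes, fell by 0.80 ± 0.17 (edgeR adjusted p = 0.00322 and 0.0111). With the length trend removed 3 were enriched and 1 was depleted (7.81% and 11.3% of all genes), and the median was -0.03. Of the noncoding RNAs of the bithorax complex, lncRNA:iab8 had 26, 17 and 1 counts in RIP and 1, 4 and 3 in input. On these few counts replicate 3 was its lowest library in RIP but not in input, whereas abd-A and Abd-B were lowest there in both groups. lncRNA:bxd had 0 counts in RIP and 0, 0 and 2 in input. Neither noncoding RNA passed the filter on low counts with all 6 libraries. Without both replicate 3 libraries lncRNA:iab8 did, at a log2 fold change of 0.95, and was not called by edgeR.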

How the data were processed

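RNA immunoprecipitation followed by sequencing was done in 3 RIP and 3 input libraries, grouped by their labels. Tools named in the submitters' processing notes are RSEM 1.2.30, STAR 2.5.4b, DESeq2 1.20.0 and Trim Galore 0.4.5, with dm6 as genome build. Which annotation release and which strand setting were used is not given in the sources used here. Each deposited table lists 17453 genes and, per the file headers, holds expected counts and TPM from RSEM, with mean transcript length and other columns such as the posterior standard deviation of each count. TPM as the authors deposited it counts rRNA in its total, so for levels per length it was rescaled to genes outside rRNA, and levels are compared between genes within a group only.

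Symbols came from an Ensembl annotation with dm6 coordinates: 17179 identifiers matched directly, 197 through transcripts and 77 not at all. Expected counts were rounded to whole numbers, filtered with filterByExpr (11670 genes kept) and given TMM library sizes. RIP over input was tested by quasi-likelihood in edgeR 4.0.16, run in R 4.3.3 beside limma 3.58.1, at 0.05 after Benjamini-Hochberg adjustment over all genes. The fold change and its F statistic give each standard error. Pair ratios used a pseudocount of 1 and exact two-sided permutation tests. DESeq2 1.42.0, limma-voom, other scalings, a length correction (loess span 0.5), a replicate block and leaving out libraries were the alternatives tried. The rule for naming genes covered the highest and lowest fold changes and each gene whose call changed under an alternative. It came to include each tested homeobox gene, since library size alone changed the call of all those not enriched, and the length correction ended 18 of the 20 calls, all but oc and Lim1, which are among the 8 highest fold changes. From other lists, values are given for the 2 genes with the smallest p in each direction; any others named were picked after their values were seen. The homeobox genes, the lists and the length classes were chosen with earlier results of these data known.

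Deviations from the group means of same-numbered RIP and input libraries correlated across genes at 0.726, 0.669 and 0.871, although replicates 1 and 2 correlated nearly as well across numbers (0.640 and 0.663). The numbers were taken to pair samples in the fits with the replicate block only. The main fit and the fits with libraries left out use the group alone, so their p-values are unpaired. With the block the common dispersion was 0.0079, and without it 0.102. Every pair of replicates differed beyond sampling noise, with a chi-square per degree of freedom of 14.0 to 129, and each of the 6 libraries counts as 1 sample. On simulated RIP and input data of 11247 genes, the main test found 96.8% of 63 genes with a 4-fold change, 14.3% of 63 genes with a 2-fold change and 1.52% of 66 genes with a 1.5-fold change, and 4 of its 75 calls were false. Every simulated gene had the same dispersion, that of the fit without the block, and same-numbered libraries shared nothing. All genes but those changed were equal between groups. The real libraries differ in these points, so the shares are not the power of the test on them. Reads without molecular identifiers are not independent molecules, so count floors cover counting error only. RSEM's posterior standard deviations of the homeobox counts were at most 0.0889 times the square root of the count. No sequence is printed, since no sequence table was used here.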

Additional observations from a re-analysis of the deposited data

How the results depend on the processing

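Counts of calls moved with the treatment of length, scaling and pairing. The number of enriched homeobox genes, 20, was 47 under library size alone and under limma on log2(TPM + 1), 2 with the length trend removed, 13 with the replicate block and the length trend removed, and 11 to 19 with 1 library left out. The number depleted, 0 (edgeR; 0 also by DESeq2 and limma-voom), was 1 with the length trend removed, 3 with the replicate block and the length trend removed, 1 without both replicate 3 libraries, and 0 with 1 library left out. Over all genes, enriched counts were 9386 under library size alone, 11296 under limma on TPM, 912 with the length trend removed and 3821 with the replicate block, and 1593 to 2608 with 1 library left out. Depleted counts were 173, 25, 1319 and 3230 under the same settings, 3498 without both replicate 3 libraries, and 1409 to 2361 with 1 library left out. Of the other homeobox genes, 29 were enriched under library size alone, 31 under limma on TPM, 2 with the length trend removed, and 6 to 9 with 1 library left out; 1 was depleted with the replicate block, with and without the length correction, and without both replicate 3 libraries, and 0 to 1 with 1 library left out. The number detected was 42 to 44 with 1 input left out.

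Single genes whose log2 fold change changed sign are given here with that value; the cause was not tested. With the length trend removed it was -0.051 for lab, -0.29 for pb, -0.21 for ara, -0.26 for caup, -0.020 for mirr, -0.24 for pdm3, -0.18 for so, 0.011 for Six4, -0.18 for Rx, -0.15 for Vsx1, -0.26 for Ptx1 and -0.053 for exex. With the replicate block and the length trend removed it was -0.29 for pb, -0.019 for Ubx, -0.21 for ara, -0.25 for caup, -0.020 for mirr, -0.25 for pdm3, -0.18 for so, 0.0044 for Six4, -0.18 for Rx, -0.11 for Vsx1, -0.26 for Ptx1 and -0.037 for exex. Under library size alone it was 1.70 for Optix and Six4, 1.71 for toe, 1.69 for scro and 1.79 for dve, and under limma on log2(TPM + 1) 2.98 for Optix, 0.99 for Six4, 2.56 for toe, 3.10 for scro and 2.75 for dve. Without rRNA genes it was -0.0096 for ara, -0.0066 for so and -0.0041 for exex, without both replicate 3 libraries -0.12 for ara and -0.14 for exex, and with no filter 0.0085 for dve. With 1 library left out it ran from -0.10 to 0.83 for lab, -0.0058 to 0.65 for exd, -0.024 to 0.30 for ara, -0.37 to 0.043 for Six4, -0.22 to 0.18 for toe, -0.021 to 0.75 for ems, -0.0050 to 0.46 for bsh, -0.34 to 0.019 for scro, -0.071 to 0.67 for exex and -0.18 to 0.023 for dve. The difference in log2 pair ratio was -0.57 for en over inv and 0.014 for toe over eyg with TPM as deposited; with 1 library left out it ran from -0.14 to 0.35 for en over inv, -0.22 to 0.29 for nub over pdm2 and -0.69 to -0.36 for toe over eyg.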

Other observations

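A further 45 homeobox genes outside the set were matched in the tables, 24 of them with 10 or more counts in every input. Of the 31 tested, 8 were enriched and none was depleted (edgeR, adjusted p under 0.05, where 20.2% and 17.0% of all genes were; 1 was lower in RIP at an unadjusted p under 0.05), with a median log2 fold change of 0.16. pros, a neuron and glia differentiation gene with the longest transcripts among them (21958 bases), had 6473, 5962 and 6358 CPM in RIP, against 1860.4, 1929 and 2047 CPM in input. It rose by 1.69 ± 0.14 (edgeR adjusted p = 0.000514) and had the highest count of any gene in RIP replicate 1. onecut, on chromosome 4, had 422, 398 and 422 CPM in RIP, against 156, 158 and 176 CPM in input, and rose by 1.34 ± 0.09 (edgeR adjusted p = 0.000365). In both genes the groups stood far apart, and both still passed with the length trend removed (edgeR adjusted p = 0.0291 for pros and 0.0107 for onecut), the only 2 of the list that did. The other 6 that rose were zfh2, NK7.1, the Pax6 genes ey and toy, master genes of eye formation, unc-4 and bcd. Like onecut, zfh2, ey and toy lie on chromosome 4, which holds no gene of the set. The share of all chromosome 4 genes that were enriched was not taken, so the 20.2% is not matched for chromosome. The call for bcd rests on 33, 16 and 15 counts in RIP and 1, 1 and 2 in input.

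cad, the homeobox gene of the posterior gut, had 3.64, 3.75 and 0.736 CPM in RIP, against 2.92, 2.99 and 0.463 CPM in input. Replicate 3 was its lowest library in both groups, as for Ubx, abd-A and Abd-B. The pair-rule gene prd had 1.47, 1.01 and 0.273 CPM in RIP, against 1.82, 0.920 and 0.154 CPM in input, and the neuroblast gene vnd had 0.789, 0.945 and 0.378 CPM in RIP, against 0.790, 0.644 and 0.206 CPM in input. Replicate 3 was the lowest library of both groups for prd and vnd too. These 3 genes were picked after their values were seen, and the cause was not tested. In both groups, 15.5% of all tested genes had replicate 3 below -1 on the log2 scale, relative to replicates 1 and 2.

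A list of 56 transcription factors without a homeodomain had 55 tested genes, of which 42 were enriched and none was depleted by edgeR (1 was lower in RIP at an unadjusted p under 0.05), where 20.2% and 17.0% of all genes were, with a median log2 fold change of 0.81 and a median transcript length of 3889 bases. The BTB zinc finger gene chinmo, a temporal factor of neurons, rose by 1.76 ± 0.09 and the zinc finger gene jim by 1.51 ± 0.10 (edgeR adjusted p = 0.000178 and 0.000373). With the length trend removed 17 of the 55 were enriched (7.81% of all genes). With the replicate block 49 were enriched and 2 depleted (32.7% and 27.7% of all genes), without both replicate 3 libraries 43 and 3 (24.7% and 28.6%), and without rRNA genes 37 and 1 (15.7% and 21.3%).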
